A study of Homo sapiens with 6 samples.

Results

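The genes of the cytoplasmic ribosomal proteins were followed in FT282 cells, an immortalised secretory epithelial line of the human fallopian tube. They were chosen by symbol: rows of the expression table named RPL or RPS with a number and an optional A, L, X or Y ending, with RPSA, RPLP0, RPLP1 and RPLP2 added, and with the S6 kinases and chromosome Y left out. By this rule 84 of the 23278 rows were ribosomal protein genes, and 79 of the 84 reached 1 FPKM in at least 1 library. BORIS cells stably expressed BORIS, which CTCFL encodes and which is a germ-line relative of the insulator protein CTCF, and EV cells stably carried an empty vector. Both came from a clonal derivative of FT282, so each value stands for 1 clone. Each group held 1 RNA-seq library. CTCF was precipitated for sequencing (ChIP-seq) from BORIS cells and from EV cells, and BORIS from BORIS cells, with 1 peak list each. A BORIS precipitation from EV cells was not analysed here, and the input from EV cells was not used.

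Ribosomal proteins join the ribosomal RNAs in the nucleolus to form the small (40S) subunit, which reads the mRNA, and the large (60S) subunit, which joins the amino acids. Nearly all are single-copy essential genes, strongly transcribed in growing epithelial cells, and their mRNAs begin with a C followed by a run of pyrimidines. This 5′ terminal oligopyrimidine (TOP) tract lets mTOR signalling, acting through LARP1, adjust the translation of the whole family together.

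With 1 library per group, no test was possible and no value has a replicate error. Every difference describes only this pair of libraries. The vector's gene CTCFL stood at 53.3 FPKM in BORIS cells and 0.00532 FPKM in EV cells, which is the direction of the labels, and CTCF at 20.8 and 21.1 FPKM. FPKM is a count of fragments scaled to transcript length and to library size, so levels are compared per length. The kit that made each RNA library was 1 of 2 and is not given per library in the sources used here. A difference of kit and the difference between BORIS and EV cells cannot be told apart, nor, in bulk RNA, can fewer cells of a type and less RNA per cell. The secretory cell marker PAX8 stood at 72.5 FPKM in BORIS cells and 71.3 in EV cells, KRT7 at 885 and 1055 FPKM and KRT19 at 1159 and 1036 FPKM. Of the 9 measured markers of the secretory epithelium 6 were lower in BORIS cells, with a median ratio of -0.17. All 12 listed markers, measured or not, summed to 2700 FPKM in BORIS cells and 2831 in EV cells. The authors' deposited table marked MUC16, at 0.627 and 1.04 FPKM, and CDH1, at 0.448 and 0.809 FPKM, as lower. EPCAM, at 0.574 and 0.732 FPKM, and the oviduct glycoprotein gene OVGP1, at 0.120 and 0.0951 FPKM, were under 1 FPKM in both. FOXJ1 of ciliated cells and CD3E of T cells were listed at 0 in both. With markers under 1 FPKM counted in, ciliated cell markers summed to 2.39 FPKM in BORIS cells and 2.83 in EV cells. In the same way leukocyte markers summed to 4.52 and 3.78 FPKM, mostly CD14 and CD68. The authors' deposited table marked CD68 as higher. Endothelium markers, counted likewise, summed to 31.5 and 36.6 FPKM, mostly CDH5. The 5 measured fibroblast and stroma markers summed to 2035 FPKM in BORIS cells and 2005 in EV cells, mostly VIM, and the other 4 were lower in BORIS cells. The part of these marker differences in the ribosomal protein values was not tested.

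The start of the transcript is the part of these genes that the choice by name did not use. RefSeq promoters (GRCh38.p14) matched 67 of the 84 genes by symbol. A run of pyrimidines that opens with C within 5 bases of the RefSeq start and is at least 8 bases long was found in 45 of the 67 (67.2%), against 6.58% of 27238 other genes. Tracts of at least 10 bases were found in 61.2% and 3.37%. The other genes were not matched for level of expression. The sequences below run from 60 bases before to 30 bases after the RefSeq start, 5′ to 3′ on the gene's strand, and capitals mark the tract. RPL41 and RPS25 had the highest ratios between the cell lines. RPL11 and RPL37A were the most abundant. RPLP0 and RPS14 carried high-scoring BORIS peaks at the start. RPS24 had no BORIS peak within 1 kb of either end, and RPL39 had the longest tract. RPL26 and RPS27 are each followed by a paralog, RPL26L1 and RPS27L, so that the pairs can be compared.
RPL41 (chr12:56116573-56116662, + strand): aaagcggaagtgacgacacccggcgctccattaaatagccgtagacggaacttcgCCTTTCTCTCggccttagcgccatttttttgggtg
RPS25 (chr11:119018314-119018403, - strand): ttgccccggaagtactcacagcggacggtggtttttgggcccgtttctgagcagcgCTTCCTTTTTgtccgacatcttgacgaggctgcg
RPL11 (chr1:23691746-23691835, + strand): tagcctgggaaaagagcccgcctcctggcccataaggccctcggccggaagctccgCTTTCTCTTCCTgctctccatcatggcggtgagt
RPL37A (chr2:216498784-216498873, + strand): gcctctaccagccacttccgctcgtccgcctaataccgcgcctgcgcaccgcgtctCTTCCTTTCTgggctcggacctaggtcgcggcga
RPLP0 (chr12:120201082-120201171, - strand): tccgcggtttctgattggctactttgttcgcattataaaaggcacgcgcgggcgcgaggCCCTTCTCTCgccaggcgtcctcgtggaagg
RPS14 (chr5:150449710-150449799, - strand): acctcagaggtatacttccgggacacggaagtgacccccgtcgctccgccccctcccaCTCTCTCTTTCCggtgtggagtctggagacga
RPS24 (chr10:78033803-78033892, + strand): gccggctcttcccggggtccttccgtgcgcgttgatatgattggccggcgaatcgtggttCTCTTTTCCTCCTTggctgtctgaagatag
RPL39 (chrX:119791601-119791690, - strand): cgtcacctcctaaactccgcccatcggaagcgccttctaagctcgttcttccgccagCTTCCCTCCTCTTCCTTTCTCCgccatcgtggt
RPL26 (chr17:8383164-8383253, - strand): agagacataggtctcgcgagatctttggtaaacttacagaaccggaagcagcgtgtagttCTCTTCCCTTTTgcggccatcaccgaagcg
RPL26L1 (chr5:172958820-172958909, + strand): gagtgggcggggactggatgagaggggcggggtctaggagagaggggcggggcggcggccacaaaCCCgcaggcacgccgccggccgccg
RPS27 (chr1:153990702-153990791, + strand): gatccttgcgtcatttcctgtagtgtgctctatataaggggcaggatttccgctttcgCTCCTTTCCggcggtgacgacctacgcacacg
RPS27L (chr15:63157448-63157537, - strand): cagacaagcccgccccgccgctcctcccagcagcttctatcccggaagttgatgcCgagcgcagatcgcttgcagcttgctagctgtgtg
The tract was 12 bases long in RPL26 and 3 in RPL26L1, and 9 in RPS27 against 1 in RPS27L. RPL22L1 kept a tract of 10 bases beside 11 in its partner RPL22, so the paralogs were not alike in this. The longest tracts were those of RPL39, with 22 bases, and RPL7A, with 21. The median tract was 10 bases over the 67 genes. The tract was read only near the RefSeq start. RPL27 and RPL9, counted with 1 base each, have longer pyrimidine runs further inside the gene.

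Nearly all ribosomal protein mRNAs were at almost the same level in BORIS and EV cells, and most were slightly higher in BORIS cells. The ratio used here is log2((BORIS + 1)/(EV + 1)) of the FPKM values, and its median over the 79 measured genes was 0.06. It was above 0 in 62 of the 79 (78.5%), against 49.9% of all measured rows, and below 0 in 17, against 50.1%. None of the 79 differed by 2-fold, against 1.45% of all rows higher and 0.936% lower by that rule. A ratio of at least 0.2 was seen in 3 genes, where 10.8% of all rows reached it, and a ratio of -0.2 or less in 1 gene, where 11.3% of all rows did. The standard deviation of the ratio between genes was 0.10 for ribosomal protein genes, and 0.08 for the 58 of them that averaged at least 100 FPKM. It was 0.18 for the 621 other rows that averaged at least 100 FPKM and were not small RNAs. Among these abundant rows 51.0% were above 0, with a median of 0.00, and among the 58 ribosomal protein genes of that level 48 (82.8%) were above 0, with a median of 0.07. The summed level of the ribosomal protein genes was 31443 FPKM in BORIS cells and 29916 FPKM in EV cells.

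None of the 84 genes was marked as different in the authors' deposited table (0 of 84), against 7.11% of all rows (3.32% higher and 3.79% lower). CTCFL, at 53.3 FPKM in BORIS cells and 0.00532 in EV cells, was not marked either. A missing mark therefore does not show that a level was unchanged. The authors' deposited table tested 79 of the 84 genes and gave a p-value under 0.05 for 5, all higher in BORIS cells. That is 6.33% of the tested ribosomal protein genes, against 21.4% of the 13297 rows tested in all. These p-values carry no replicate error. In the authors' deposited table RPS25 had an adjusted p (q-value) of 0.0634, RPL41 0.0724, RPS20 0.112, RPL35A 0.210 and RPL30 0.222.

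**Figure D1:**
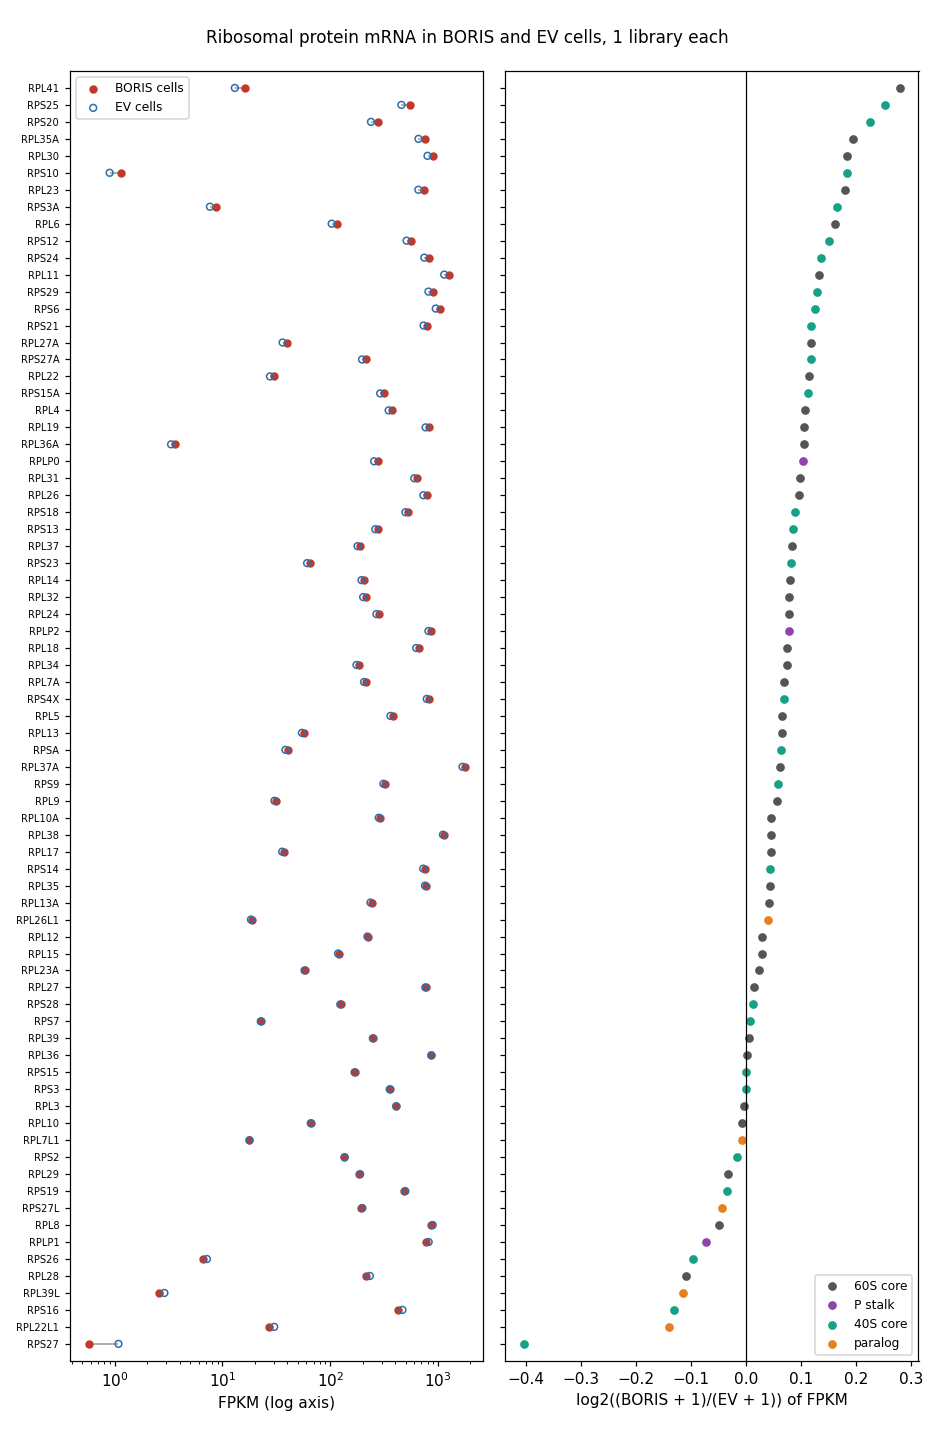
FPKM of 75 of the measured ribosomal protein genes in BORIS cells (filled) and EV cells (open), 1 library each, on a log axis (left), and their log2((BORIS + 1)/(EV + 1)) coloured by subunit (right), sorted by this ratio. The left points nearly coincide for most genes, and the ratios lie between -0.14 and 0.28 except for RPS27 at -0.40.

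The large subunit proteins made up the biggest group. Of 41 measured core proteins of the 60S subunit, 35 were above 0, with a median ratio of 0.07. RPL41, the shortest ribosomal protein, stood at 16.01 FPKM in BORIS cells and 13.02 FPKM in EV cells, the highest ratio of all members at 0.28. Its span on hg19 is chr12:56510373-56511616. RPL35A, whose loss causes Diamond-Blackfan anemia in some families, was at 753 FPKM in BORIS cells and 658 in EV cells. RPL30, which binds its own transcript in yeast, was at 908 and 799 FPKM, RPL23, an MDM2 binder, at 744 and 657 FPKM, and RPL6 at 115 and 103 FPKM. All 5 were higher in BORIS cells, with ratios of 0.16 to 0.28. At the other end, RPL28 stood at 216 FPKM in BORIS cells and 233 in EV cells, a ratio of -0.11, and RPL8, which lies near the catalytic centre, at 862 and 892 FPKM.

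RPL37A, a zinc-binding protein of the large subunit, had the highest level of any ribosomal protein gene, 1761 FPKM in BORIS cells and 1688 in EV cells. RPL11 was next at 1253 and 1143 FPKM, then RPL38 at 1147 and 1112 FPKM, and the order of these 3 was the same in both libraries. RPL36 was among the 10 most abundant too, at 867 FPKM in BORIS cells and 866 in EV cells. RPL11 and RPL5 form with 5S rRNA the particle that binds MDM2 and restrains it when ribosome assembly fails. RPL5 was at 379 FPKM in BORIS cells and 362 in EV cells, and the ratios of RPL11 and RPL5 were 0.13 and 0.07. The 8 proteins around the exit tunnel of the growing peptide were all above 0, with a median of 0.07. RPL4, a tunnel-wall protein, had the highest ratio of them, at 375 FPKM in BORIS cells and 348 in EV cells, with RPL19 next at 826 and 767 FPKM. RPL39, also a tunnel protein, had the lowest ratio, at 249 and 248 FPKM, and RPL23A, which contacts the signal recognition particle, stood at 58.7 and 57.7 FPKM. Of the other tunnel proteins, RPL26 was at 783 and 732 FPKM, RPL31 at 645 and 602 FPKM, RPL35 at 779 and 757 FPKM and RPL17 at 37.0 and 35.8 FPKM.

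The acidic stalk, which recruits the elongation factors to the large subunit, was mixed. RPLP0, its base, was at 274 FPKM in BORIS cells and 255 in EV cells, a ratio of 0.10. RPLP2 was at 860 and 815 FPKM, a ratio of 0.08. RPLP1, which pairs with RPLP2, was at 778 and 818 FPKM and therefore lower in BORIS cells, at -0.07.

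Of the 30 measured core proteins of the 40S subunit 24 were above 0, with a median of 0.08. RPS25, which is needed for initiation at some viral internal ribosome entry sites, stood at 545 FPKM in BORIS cells and 457 in EV cells. RPS20 was at 279 and 239 FPKM, RPS3A at 8.70 and 7.65 FPKM and RPS12 at 567 and 511 FPKM. Among the most abundant of this subunit were RPS6, the classic target of S6 kinase, at 1040 FPKM in BORIS cells and 953 in EV cells, and RPS29, at 891 and 815 FPKM. RPS16, whose tail reaches the peptidyl-tRNA site, was lower in BORIS cells, at 427 FPKM against 467 in EV cells, a ratio of -0.13.

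RPS27 had the lowest ratio of all, -0.40, but from values close to the filter: 0.574 FPKM in BORIS cells and 1.08 FPKM in EV cells. The authors' deposited table gave it a p-value of 0.389. RPS10 lay at the same level with the opposite sign, at 1.16 FPKM in BORIS cells and 0.898 in EV cells, a ratio of 0.18. Of the 10 measured Diamond-Blackfan genes, whose single-copy loss causes a red-cell anemia, 8 were above 0, with a median of 0.08. RPS19, the first of them to be described, was at 485 FPKM in BORIS cells and 497 in EV cells, and RPS26 at 6.64 and 7.17 FPKM. These were the 2 below 0. RPS24, another gene of that list, was at 821 and 746 FPKM, RPL15 at 121 and 118 FPKM and RPS7 at 22.8 and 22.7 FPKM.

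The paralogs were mostly slightly lower in BORIS cells. Of 5 measured paralogs 1 was above 0, and the median was -0.04. RPL22L1, which can replace RPL22, was at 27.3 FPKM in BORIS cells and 30.2 in EV cells, while RPL22 itself was at 29.9 and 27.6 FPKM. RPL22 was thus the higher of the pair in BORIS cells and RPL22L1 in EV cells. RPL39L, a testis-enriched paralog of RPL39, was at 2.59 and 2.89 FPKM, and RPS27L, a p53 target in human cells, at 193 and 199 FPKM. RPL7L1 was at 17.7 and 17.8 FPKM. RPL26L1 was the 1 above 0, at 18.9 and 18.4 FPKM. RPL3L, the striated-muscle paralog, and RPL10L, the testis paralog, were listed at 0 in both libraries.

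**Figure D2:**
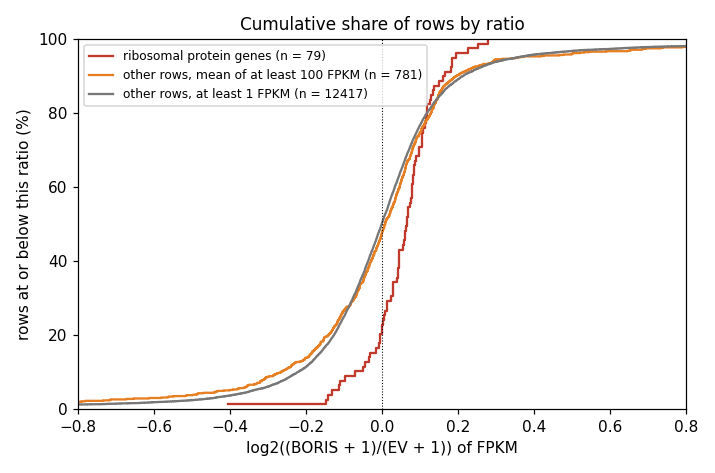
Cumulative share of rows (vertical axis, percent) at or below each log2((BORIS + 1)/(EV + 1)) of FPKM for the 79 ribosomal protein genes, 781 other rows with a mean of at least 100 FPKM and 12417 other rows with at least 1 FPKM. The ribosomal protein curve is steep, stands lower than the other curves at a ratio of 0 and reaches its top before 0.3.

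Levels within the family spanned more than the differences between cell lines. In BORIS cells 11 of the 84 genes were under 10 FPKM, 15 lay from 10 to 100, 31 from 100 to 500, 22 from 500 to 1000 and 5 above. In EV cells these counts were 11, 15, 33, 21 and 4. Genes listed low included RPL7, at 0.401 FPKM in BORIS cells and 0.370 in EV cells, RPL21, at 0.139 and 0.0305 FPKM, and RPL36A, at 3.66 and 3.33 FPKM. Processed pseudogenes, intronless copies of their mRNAs, are common for this family, and reads from near-identical copies can be split or lost, so single levels are uncertain. RefSeq names 1972 pseudogenes for the 84 genes, 137 for RPL21, 95 for RPL23A, 61 for RPL7, 59 for RPS26 and 54 for RPS3A. Of the 42 genes with at least 15 such names and a value above 0, 7 averaged under 10 FPKM, against 0 of the 34 genes with 5 to 14 names and 1 of the 5 with fewer, 4 of which are paralogs. The medians were 188 FPKM in BORIS cells and 184 in EV cells for the genes with at least 15 names, 479 and 462 FPKM for those with 5 to 14, and 27.3 and 30.2 FPKM for the 5 with fewer. Across 81 genes with a value above 0 the Spearman correlation between level and number of names was -0.27. The median ratio was 0.07 with at least 15 names, 0.06 with 5 to 14 and -0.04 with fewer. How reads of pseudogenes were assigned was not tested.

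Other parts of the translation machinery were also close to equal. Of the 4 measured ribosomal proteins outside the naming rule all were above 0, with FAU, the precursor of RPS30, at 389 FPKM in BORIS cells and 343 in EV cells. GNB2L1 (RACK1) was at 1001 and 956 FPKM. Translation factors had 28 of 34 genes above 0 and a median of 0.05, by ratio from EIF3E at 132 and 115 FPKM to EIF4G2, an eIF4G relative, at 431 and 500 FPKM. Other mRNAs with TOP tracts had 17 of 20 above 0 and a median of 0.06, with PABPC1, the poly(A)-binding protein, lowest by ratio at 121 and 139 FPKM. The list shares PABPC1, EIF3E and FAU with the lists just given. Ribosome biogenesis factors had 30 of 53 above 0 and a median of 0.01. BYSL was the 1 factor marked in the authors' deposited table, at 12.1 and 14.8 FPKM. NOP10, a component of H/ACA particles, had the highest ratio at 203 and 178 FPKM.

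RNA polymerase I subunits and factors had 6 of 14 above 0, with a median of -0.02. POLR1A, the catalytic subunit, had the lowest ratio at 12.9 FPKM in BORIS cells and 14.7 in EV cells, and TWISTNB the highest at 15.2 and 13.6 FPKM. Regulators of ribosomal protein synthesis had 8 of 19 above 0, also with a median of -0.02. LARP1, the binder of TOP mRNAs, was at 29.6 and 33.3 FPKM, MDM2 at 32.3 and 36.5 FPKM and MYC, a driver of ribosome synthesis, at 28.5 and 29.4 FPKM. GABPA, an ETS-family factor, had the highest ratio at 5.25 and 4.54 FPKM. Of 10 measured snoRNA host genes outside the family 4 were above 0, by ratio from SNHG15 at 9.29 and 10.5 FPKM to EPB41L4A-AS1 at 5.98 and 4.70 FPKM, which the authors' deposited table marked. Mitochondrial ribosomal proteins, a set added after values were seen, had 54 of 77 above 0 and a median of 0.05. All these counts stand beside 49.9% above 0 for all measured rows.

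Genes with a long tract were not set far apart from the rest by ratio. The 44 measured genes with a tract of at least 8 bases had a median ratio of 0.08, with 35 above 0, and the 21 with a shorter tract a median of 0.04, with 17 above 0. This split rests on the RefSeq starts, and whether FT282 cells used those starts was not tested. Several motifs, chosen after sequences had been seen, were counted on both strands of the 300-base windows from 250 bases before to 50 after the start. CCGGAAG, a core of ETS-family sites, was in 35.8% of the 67 promoters and 12.1% of the 27238 others. The others were not filtered by expression or matched for level. CTCTTTCC, which can overlap the tract, was in 16.4% and 3.67%, AAGATGGC, a core of YY1 sites, in 10.4% and 3.51%, and GGGCGG, the GC box, in 58.2% and 48.3%. TATAAA was in 10.4% and 13.995%, CACGTG, an E-box, in 7.46% and 8.78%, and a core of the CTCF consensus in 4.48% and 5.61%. The last was found in 3 of 47 genes with a BORIS peak and in 0 of 19 without. By CTCF peak in BORIS cells it was found in 2 of 30 genes with one and in 1 of 36 without. These counts are too small to compare. A match is a string in this window and not a measured site.

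Listed BORIS peaks were frequent at these genes. The rule for a peak near a gene was a distance of at most 1 kb between its centre and an end of the gene's span on hg19. BORIS peaks met this rule for 57 of the 83 genes on the peak lists' chromosomes (68.7%, Wilson 95% interval 58.1 to 77.6), against 40.3% of all rows. RPS18, on an alternative haplotype, could not be joined. Active genes had more such peaks in general. Of the ribosomal protein genes with at least 1 FPKM 70.5% (59.6 to 79.5) had one, against 57.8% of all rows with at least 1 FPKM and 61.2% of rows that averaged at least 100 FPKM. Within that high level the shares were 63.2% (50.2 to 74.5) for ribosomal protein genes and 61.1% (57.6 to 64.5) for the others, a difference within the interval. The intervals cover counting error only. The peaks were not set beside a BORIS precipitation from EV cells, so how many mark specific binding was not tested.

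CTCF peaks were near 37 of 83 genes in BORIS cells (44.6%, 34.4 to 55.3) and near 34 in EV cells (41.0%, 31.0 to 51.7). The shares over all rows were 27.2% for CTCF in BORIS cells and 24.4% for CTCF in EV cells, and over rows with at least 1 FPKM 34.3% and 30.8%. Among genes that averaged at least 100 FPKM, CTCF was near 21 of 57 ribosomal protein genes in BORIS cells (36.8%, 25.5 to 49.8) and 22 in EV cells (38.6%, 27.1 to 51.6), against 34.8% and 31.7% of all rows of that level. Both CTCF lists and the BORIS list had a peak near an end of 31 genes (37.3%, against 25.6% of other rows with at least 1 FPKM). The end was not always the same: at RPL22 and RPL7A BORIS was near the start and CTCF near the other end. Here and below, the shares of the 83 genes include genes under 1 FPKM, and those of other rows do not. BORIS without CTCF in either list was seen at 21 (25.3%, against 27.8%), among them RPS25, RPL37A, RPS6, RPS27 and RPL30. No peak of any list was near 23 (27.7%, against 36.8%). The measured ones included RPL6, RPL8, RPL13A, RPL15, RPL19, RPL23, RPL28, RPL34, RPL35A and RPLP1 of the large subunit and RPS9, RPS10, RPS12, RPS15A, RPS21, RPS24 and RPS27A of the small one. Only span ends were searched. Spans shared with other rows, among them those of RPL15, RPL35A and RPS27A, may end away from the gene's own start. A peak at such a start would not be counted. RPL4, RPL22L1 and RPL39 had CTCF without BORIS.

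**Figure D3:**
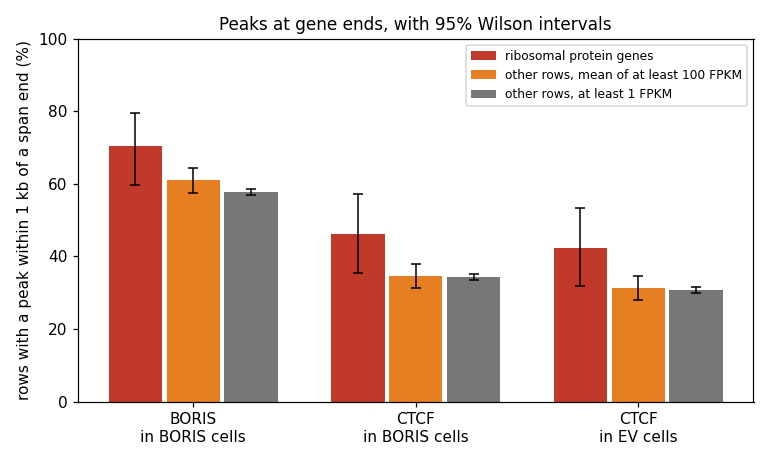
Share of rows (percent) with a peak centre within 1 kb of either end of the span, for BORIS in BORIS cells, CTCF in BORIS cells and CTCF in EV cells, with Wilson 95% intervals. Ribosomal protein genes with at least 1 FPKM have the tallest bar of each trio, and for BORIS their interval of 59.6 to 79.5 includes the 61.1% of other rows with a mean of at least 100 FPKM.

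CTCF status differed between the lists at few genes. A peak near RPL13, RPL27A, RPL9, RPS28 and RPL22L1 was listed in BORIS cells and not in EV cells, and one near RPL3 and RPL39 in EV cells and not in BORIS cells. These peaks stood low in their own lists. The highest of them, at RPS28 (chr19:8386137-8386385), exceeded 19.2% of the CTCF list of BORIS cells by score, and the lowest, at RPL3 (chr22:39715498-39715702), 1.28% of the list of EV cells. The depth of the lists is unknown, and its part in these differences was not tested. RPL9 stood at 31.6 FPKM in BORIS cells and 30.4 in EV cells, RPS28 at 125 and 124 FPKM, and RPL3 at 408 and 409 FPKM.

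Many BORIS peaks at these genes scored high. Of 71 peaks near the ends of ribosomal protein genes 19 (26.8%) were in the top 10% of the authors' scores. The share was 11.5% for the 7237 peaks near other rows with at least 1 FPKM. The 71 include peaks near genes below that level. Among them is RPS17L, listed at 0 FPKM in both libraries, whose best peak exceeded 97.3% of the list. These sets were not matched for level of expression. The score is the authors' and has no stated unit. The median peak exceeded 57.8% of the list, against 51.2%. The 5 genes with the highest scores were RPL26L1 with 2014, RPS3A with 1890, RPL32 with 1873, RPLP0 with 1853 and RPS20 with 1781. The RPL26L1 peak lies at chr5:172386159-172386574, over the start of a gene with no long tract, that of RPLP0 at chr12:120638622-120639583 and that of RPS14, with a score of 1692, at chr5:149829267-149829823. Of the 71 peaks 52.1% (40.7 to 63.3) overlapped a CTCF peak of BORIS cells and 49.3% (38.0 to 60.7) one of EV cells. The same shares for peaks near other rows were 42.2% and 37.5%, and for all 23653 BORIS peaks 65.6% and 62.4%. The 19 peaks in the top 10% all overlapped a CTCF peak of BORIS cells and one of EV cells, except that of RPL7L1. The high scores at these genes thus lay almost wholly at sites with CTCF in both cell lines. The same overlap was not counted for high-scoring peaks near other rows.

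The peaks gathered at the start of the genes. For 40 genes with a span of their own, at least 1 FPKM and a known orientation, BORIS was near the start of 31 (77.5%, 62.5 to 87.7) and near the other end of 3 (7.5%, 2.58 to 19.9). Of 6537 other rows with a span of their own and at least 1 FPKM, 57.5% (56.3 to 58.7) had one at the start and 4.54% at the other end. CTCF was near the start in 45.0% of the 40 genes in BORIS cells and in 37.5% in EV cells, against 29.6% and 25.98% of the other rows. These other rows were not matched for level. At a mean of at least 100 FPKM, BORIS was near either end of 63.2% of ribosomal protein genes and 61.1% of other rows. Shares at the start alone were not computed at that level. The ribosomal protein spans are short, with a median of 4587 bp against 30402 bp. BORIS peak centres lay at a median of 53 bp inside the gene, with 15 upstream and 19 downstream of the start. CTCF centres lay at a median of -90 bp in BORIS cells, with 16 of 20 upstream, and of -146 bp in EV cells, with 15 of 16 upstream.

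**Figure D4:**
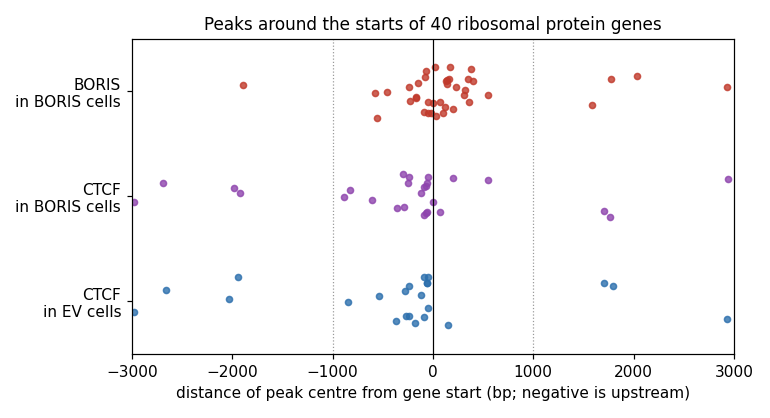
Distance of peak centres from the gene start (bp, negative is upstream) for the 40 ribosomal protein genes with a span of their own, 1 point per peak, with random vertical offset; dotted lines mark 1 kb. BORIS points lie on both sides of the start, and most CTCF points within 1 kb lie upstream, in BORIS and in EV cells.

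Genes with and without a BORIS peak had nearly the same ratio. The median was 0.06 over 55 measured ribosomal protein genes with a peak, of which 42 were above 0, and 0.09 over 23 without one, of which 19 were above 0. Among the other rows the order was the other way round, 0.02 over 7096 with a peak and -0.03 over 5189 without. RPS25 and RPL41, with the highest ratios, each had a BORIS peak near an end of the span. The peak of RPS25, whose span is shared, at chr11:118888555-118889251, exceeded 46.9% of the list, and the peak at the start of RPL41, at chr12:56509702-56511246, 3.96%. Of the 3 BORIS peaks near RPL41 the strongest lay at its other end, at chr12:56511660-56512253. It exceeded 74.8% of the list and overlapped a CTCF peak in BORIS cells and in EV cells. RPS27, with the lowest ratio, had one too, which exceeded 6.25% of the list. Across the 55 genes with a peak, the Spearman correlation of the ratio with the score rank of the best peak was 0.006.

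The introns of ribosomal protein genes hold many small nucleolar RNAs (snoRNAs), which guide the methylation and pseudouridylation of ribosomal RNA and are cut out of the spliced introns. The table listed 55 snoRNA rows in the spans of 27 ribosomal protein genes, and 52 were measured. They differed far more between the libraries than their hosts. Of the 52, 6 were at least 2-fold higher in BORIS cells and 5 at least 2-fold lower, together 21.2%, against 30.7% of 192 other measured snoRNA rows and 0 of 79 ribosomal protein genes. The authors' deposited table marked 0 of the 55, and 2 of the 311 other snoRNA rows.

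Within some hosts the snoRNAs went both ways. In RPL23A, SNORD42A stood at 177 FPKM in BORIS cells and 494 in EV cells and SNORD4B at 65.9 and 212 FPKM, while SNORD4A was at 1418 and 1004 FPKM and SNORD42B at 57.6 FPKM in BORIS cells and listed at 0 in EV cells. In RPL13A, SNORD34 was at 582 and 168 FPKM and SNORD33 at 1879 and 2347 FPKM. Those of RPL4 were all higher in BORIS cells, among them SNORD18A at 269 and 57.9 FPKM and SNORD16 at 135 and 114 FPKM. SNORD54 in RPS20 was at 536 and 1338 FPKM although RPS20 itself was higher in BORIS cells. These RNAs are short, so few reads can give a high FPKM, and the reads behind each value are unknown.

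**Figure D5:**
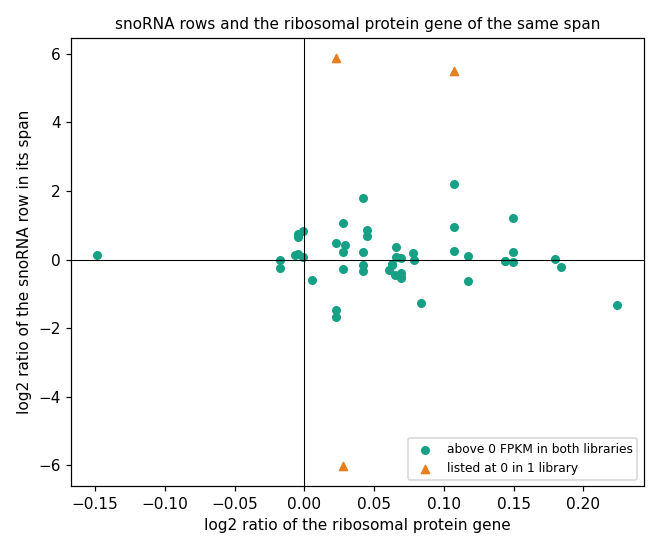
Log2 ratio (BORIS over EV, FPKM + 1) of 52 snoRNA rows (vertical axis) against that of the ribosomal protein gene in whose span each lies (horizontal axis); triangles are listed at 0 FPKM in 1 library. The hosts lie between -0.15 and 0.22, while the snoRNAs reach from -6.01 to 5.87.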

How the data were processed

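RNA was sequenced from BORIS cells and EV cells (1 library each) and chromatin from 3 precipitations. The deposited expression table gives FPKM per gene, and the authors added p-values, q-values and a yes or no call for each row. The submitters' processing notes name hg19 and the tools Cufflinks 2.0.0, TopHat2 and Bowtie. The deposited peak lists give the start, end, score and an inner position of each peak; how peaks were called, at which threshold and whether against the input is not given in the sources used here. Depth is unknown, so FPKM carry no interval.

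Ratios are log2((BORIS + 1)/(EV + 1)). A row counted as measured with at least 1 FPKM in either library. With 1 library per group no test was run: counts and medians stand beside those of all rows. Peaks were joined to spans by their centre, within 1 kb of either end, and overlapped by at least 1 bp. Spans shared with other rows (35 of 84) may end away from the gene's own ends. Strand came only from RefSeq GRCh38.p14, with no coordinates moved between builds. Intervals are Wilson 95% and cover counting error only. Genes named were the 10 highest and 10 lowest ratios, the 10 highest levels, those under 10 FPKM, the paralogs, the stalk, 5S, tunnel and Diamond-Blackfan genes, the 5 top-scoring BORIS peaks, genes with no BORIS peak or with differing CTCF status, and the extremes of other lists; further members serve as examples, and some genes under these rules are not reported here. Members, gene lists and rules were chosen with earlier results of these data known. The computations used Python 3.11.15, pandas 2.3.3, numpy 2.4.6, scipy 1.17.1 and matplotlib 3.10.9, and were tested on simulated data. Alternatives were other pseudocounts, filters, distances, score limits, overlap rules and subsets of members.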

Additional observations from a re-analysis of the deposited data

How the results depend on the processing

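Of 52 alternatives to 9 results, 43 left the result in the same direction and near its size. Some of these could not move: the 2-fold count and the authors' marks were 0, and stay 0 in any subset of the genes. In none did the median ratio, or the difference by BORIS peak, change sign. The count past 0.2 log2 units was 4; it was 2 with spans of their own and 2 with under 15 pseudogene names, a limit chosen after seeing the data, as was the gene start of genes with their own span. With a window of 5 kb the shares of genes near a peak were 79.5% for BORIS, 71.1% for CTCF in BORIS cells and 66.3% for CTCF in EV cells, where a wider window takes in more peaks. With peaks above each list's median score alone they were 43.4%, 28.9% and 28.9%, where fewer peaks were used. A reciprocal overlap of 50% left 31.0% of the BORIS peaks near these genes overlapping CTCF. The median ratio ranged from 0.06 to 0.07. No paired analysis was possible because each group held 1 library. Unknown depth limits the peak lists: a gene without a listed peak may be bound below the threshold, and FPKM under 1 may rest on few reads.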
